A study of Homo sapiens with 24 samples.

Results

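The 9 genes described here encode enzymes of the tricarboxylic acid (TCA) cycle and their cytosolic partners: CS, IDH1, IDH2, IDH3A, OGDH, SUCLG2, FH, MDH1 and MDH2. They were chosen by gene name, with earlier results of these data known, and are 9 of the 22446 gene symbols in the deposited table. All 9 passed the minimum for testing, at least 1 RPKM in at least 2 libraries, as did 11933 symbols in all. RPKM is the number of reads per kilobase of transcript and per M reads (M, 1e6), so levels can be set side by side between genes.

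The cells were A2780, an established human cell line that the labels call epithelial ovarian cancer. All cells grew at 37°C in 5% CO2 in RPMI 1640 supplemented with serum (10 to 15% FBS) and 0.1% gentamicin sulfate. Hypoxic cells were kept in a chamber at 1% O2 for 6 hr, 48 hr or 6 days, and normoxic cells served as the control at each time. Each of the 6 groups held 2 libraries of ribosome-depleted total RNA. Libraries 1 and 2 were normoxia and 3 and 4 hypoxia at 6 hr, libraries 5 and 6 were normoxia and 7 and 8 hypoxia at 48 hr, and libraries 9 and 10 were normoxia and 11 and 12 hypoxia at 6 days. No genotype or agent other than oxygen and time differs between the groups in the labels. Nothing in the labels tells whether the pair of libraries in a group stems from different cultures. The p-values therefore refer to library-to-library spread, which may be technical. A single cell line is the whole model.

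The TCA cycle burns acetyl groups in the mitochondrial matrix and hands the electrons to the respiratory chain, which uses oxygen. Its dehydrogenases make NADH, and its intermediates leave the mitochondrion as building blocks for lipids and amino acids. The cycle also touches oxygen sensing, because the hydroxylases that mark hypoxia-inducible factor for destruction consume 2-oxoglutarate and are inhibited by succinate and fumarate. In low oxygen many cells send less pyruvate into the cycle.

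Of the 4 genes below that fell in hypoxia at 6 days, 3 have an upstream sequence in the RefSeq promoter table (GRCh38.p14). These are shown because all 3 genes were lower in that comparison. Each is the 250 bases before the annotated gene start, written 5′ to 3′ on the strand of the gene. The FH sequence is at chr1:241519756-241520005, minus strand, the CS sequence at chr12:56300331-56300580, minus strand, and the MDH2 sequence at chr7:76047856-76048105, plus strand. Capitals mark the letters of the motifs searched on both strands: the core of the hypoxia response element (ACGTG or GCGTG), the E-box CACGTG, the ETS motif CCGGAAG and the CCAAT box, which reads ATTGG on the other strand.
FH: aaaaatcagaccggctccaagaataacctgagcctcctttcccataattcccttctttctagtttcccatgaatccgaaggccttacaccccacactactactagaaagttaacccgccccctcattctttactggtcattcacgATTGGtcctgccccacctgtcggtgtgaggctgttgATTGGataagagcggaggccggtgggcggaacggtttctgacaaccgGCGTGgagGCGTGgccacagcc
CS: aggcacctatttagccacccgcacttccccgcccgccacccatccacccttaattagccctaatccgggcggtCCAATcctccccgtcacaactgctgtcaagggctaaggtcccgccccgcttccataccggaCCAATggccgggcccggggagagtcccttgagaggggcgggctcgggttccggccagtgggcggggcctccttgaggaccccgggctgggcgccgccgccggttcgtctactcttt
MDH2: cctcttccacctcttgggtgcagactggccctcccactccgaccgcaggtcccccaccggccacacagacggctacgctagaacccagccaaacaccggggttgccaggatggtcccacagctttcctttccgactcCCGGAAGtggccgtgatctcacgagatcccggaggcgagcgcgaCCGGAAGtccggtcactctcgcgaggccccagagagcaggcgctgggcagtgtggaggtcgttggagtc
CACGTG contains ACGTG, so those searches overlap.

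The table gave a sequence at the annotated start for 7 of the 9 genes, all but IDH2 and OGDH. The hypoxia core was found in 3 of the 7, with 2 copies in FH, 3 in IDH1 and 2 in IDH3A, all of them GCGTG, and in 43.2% of 35116 upstream sequences of the same length. CCAAT was found in 4 of the 7, with 2 copies each in CS, FH and IDH1 and 1 in MDH1, against 32.0% of all sequences. CCGGAAG was found in MDH2, with 2 copies, against 8.52% of all sequences. No E-box was found in the 7 sequences, against 6.34% of all. The 3 sequences printed above thus share no motif of this set: FH and CS hold CCAAT and MDH2 does not. A match describes letters and says nothing of binding.

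Library depth, inferred from the steps in the low values of the companion table of precursor miRNAs, ran from 25.1 to 51.7 M reads. If the gene table has the same denominator, which the sources used here do not state, the 9 genes had from 153 to 4402 reads per kilobase in a library. The median absolute log2 difference between the libraries of a group over all genes tested was 0.0886 to 0.204, and was highest for libraries 1 and 2. The hypoxia markers PDK1, BNIP3, CA9 and SLC2A1 together were at 23.4 to 37.9 RPKM in the normoxic and 90.8 to 283 RPKM in the hypoxic libraries. Of the 5 epithelial markers EPCAM was at 33.2 to 42.2 RPKM and KRT18 at 23.7 to 38.2 RPKM in all 12 libraries. KRT8 was only at 0.615 to 1.96 RPKM, and CDH1 and KRT19 were below 0.1 RPKM. The 4 Müllerian and ovarian cancer markers PAX8, WT1, MUC16 and EMX2 summed to at most 0.324 RPKM, so these defining markers were below the minimum. No leukocyte or endothelial marker reached the minimum. Of 5 fibroblast markers 3 did (DCN, LUM and COL3A1). Their list summed to 23.3 to 28.3 RPKM in normoxia and 28.0 to 28.6 in hypoxia at 6 hr, 21.4 to 22.2 and 33.4 to 36.9 at 48 hr, and 28.8 to 29.5 and 39.6 to 42.7 at 6 days. This sum moved with oxygen at 48 hr and 6 days, and its part in the results below was not tested.

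Low oxygen left the 9 genes without a call at 6 hr and 48 hr and moved 5 of them at 6 days. FH, CS, MDH2 and OGDH fell by 1.34 to 1.58 times, and IDH2, the mitochondrial NADP-dependent isocitrate dehydrogenase, rose 1.39 times. IDH2 also rose when hypoxia was compared with normoxia across the times, the one gene of the 9 called there. Calls rest on limma, adjusted by Benjamini-Hochberg across the 11933 genes, and a threshold of 0.05 on adjusted p, and fold changes are on the log2(RPKM + 0.5) scale, which understates the change of low genes. Of all genes tested, 3.59% were called at 6 hr, 12.1% at 48 hr (9.24% higher and 2.89% lower), 42.2% at 6 days (23.9% higher and 18.3% lower) and 22.5% across the times (15.3% higher and 7.13% lower). The 5 of 9 at 6 days is therefore near the share over all genes. The median log2 fold change of the 9 genes at 6 days was -0.30, and 0.04 over all genes tested. In bulk RNA, fewer cells with a transcript and less of it per cell cannot be told apart.

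**Figure D1:**
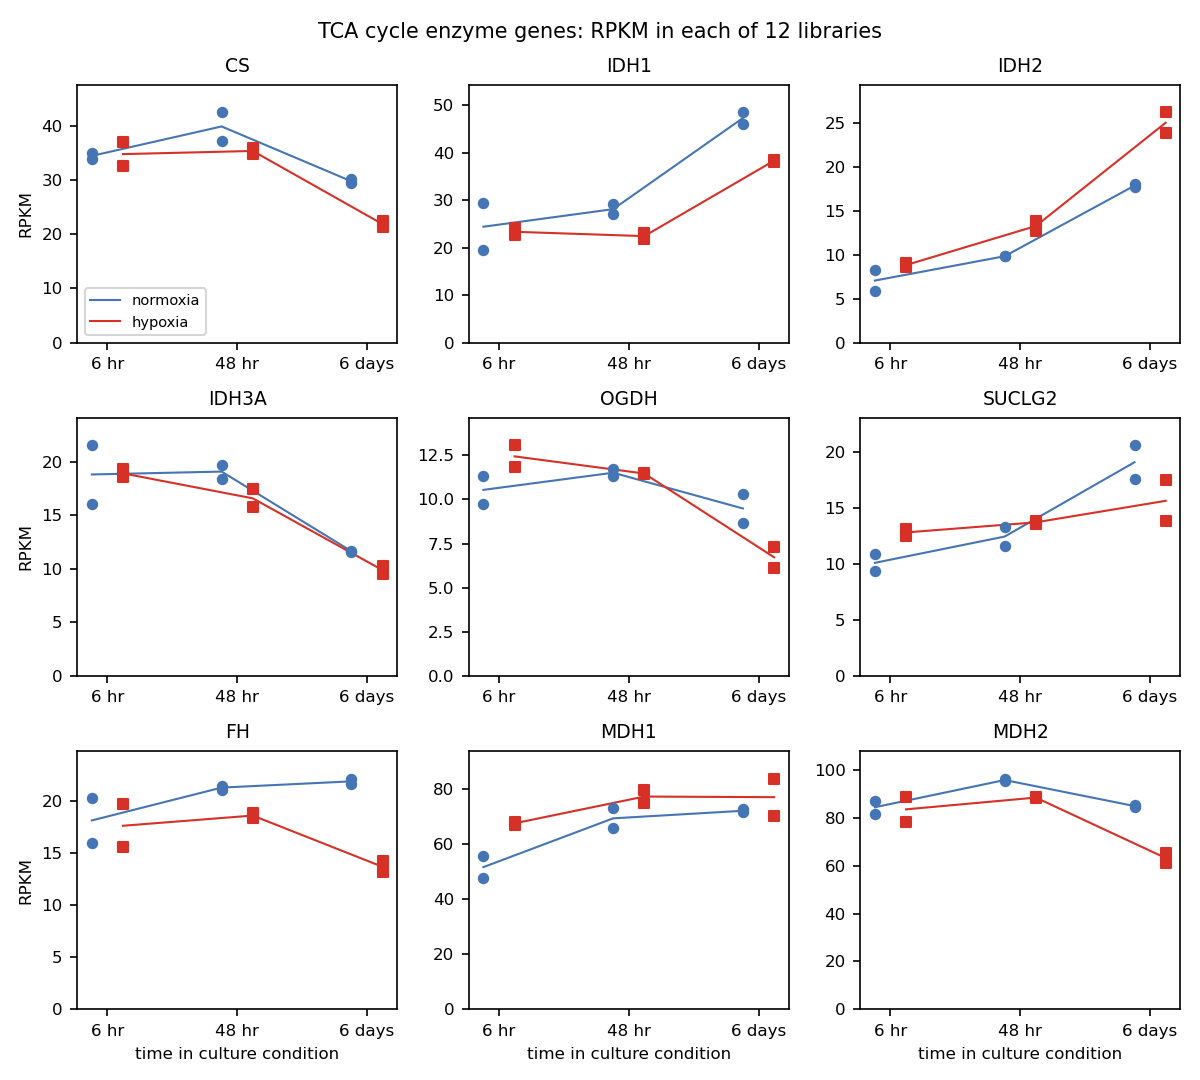
RPKM of each of the 9 genes (y axis, from 0) in the 12 libraries by time (x axis), with normoxia and hypoxia in separate colours. Points are libraries and lines join group means. Both hypoxic libraries at 6 days lie below both normoxic ones for CS, FH, MDH2 and OGDH, and above them for IDH2.

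CS is citrate synthase, which joins acetyl-CoA to oxaloacetate and opens the cycle. At 6 hr its level was 33.9 and 35.1 RPKM in normoxia and 37.0 and 32.6 in hypoxia, at 48 hr 37.3 and 42.6 against 36.0 and 34.8, and at 6 days 30.1 and 29.4 against 21.3 and 22.5. The groups overlapped at 6 hr and lay apart at 48 hr and 6 days, with hypoxia lower. At 6 days CS fell by 0.44 on the log2 scale (SE 0.0964, limma adjusted p = 0.00414), to 21.9 ± 0.840 RPKM from 29.8 ± 0.498 (SD, n = 2). The differences at 6 hr and 48 hr were 0.01 (limma adjusted p = 0.969) and -0.17 (limma adjusted p = 0.293). From lowest to highest the group means ran hypoxia at 6 days, normoxia at 6 days, then normoxia at 6 hr, hypoxia at 6 hr and hypoxia at 48 hr, whose neighbours overlapped, and normoxia at 48 hr, a span of 1.82 times.

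IDH1 and IDH2 turn isocitrate into 2-oxoglutarate and make NADPH, IDH1 in the cytosol and peroxisomes and IDH2 in mitochondria. IDH2 stood at 8.28 and 5.86 RPKM in normoxia and 9.03 and 8.64 in hypoxia at 6 hr, at 9.85 and 9.84 against 13.9 and 12.7 at 48 hr, and at 17.7 and 18.1 against 26.3 and 23.8 at 6 days. Hypoxia was higher without overlap at every time, and none of the neighbours in the order of the 6 groups overlapped. The span from 7.07 ± 1.71 RPKM in normoxia at 6 hr to 25.1 ± 1.70 in hypoxia at 6 days (SD, n = 2) was 3.54 times, the widest of the 9 genes. Hypoxia minus normoxia was 0.32 on the log2 scale at 6 hr (SE 0.129, limma adjusted p = 0.238), 0.41 at 48 hr (limma adjusted p = 0.0623) and 0.47 at 6 days (SE 0.129, limma adjusted p = 0.0131). Across the times IDH2 rose by 0.40 (SE 0.0762, limma adjusted p = 0.00273), and this call held under all 19 alternatives run for it. The call at 6 days was lost without library 9, 10 or 11 (limma adjusted p = 0.0640, 0.0536 and 0.0870). At 48 hr the difference passed with quantile normalization (0.38, limma adjusted p = 0.0304) and in a fit of the 2 groups alone (limma adjusted p = 0.0157). Trimmed-mean centring also called 1 of the 9 genes there, as higher, with 16.4% of all genes called. At 6 hr the IDH2 difference was 0.55 without library 1.

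IDH1 was not called for oxygen at any time. Its level at 6 hr was 29.4 and 19.4 RPKM in normoxia and 24.1 and 22.6 in hypoxia, at 48 hr 27.0 and 29.2 against 23.1 and 21.7, and at 6 days 46.1 and 48.5 against 38.1 and 38.5. Normoxia was spread widely at 6 hr, and hypoxia was the lower group without overlap at 48 hr and 6 days. The log2 difference did not pass at 48 hr (-0.32, limma adjusted p = 0.201) or at 6 days (-0.30, SE 0.150, limma adjusted p = 0.130). The order of means placed hypoxia at 48 hr lowest and normoxia at 6 days highest, 2.11 times apart, and in that order each of the 4 groups of 6 hr and 48 hr overlapped the next, while the 6-day groups lay clear.

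IDH3A is the catalytic subunit of the NAD-dependent isocitrate dehydrogenase, the form that drives the cycle itself. It was at 21.5 and 16.1 RPKM in normoxia and 18.6 and 19.3 in hypoxia at 6 hr, at 18.4 and 19.8 against 17.4 and 15.7 at 48 hr, and at 11.7 and 11.6 against 10.2 and 9.52 at 6 days. All 4 libraries of 6 days lay below all 8 of the earlier times. The oxygen difference was -0.23 at 6 days (SE 0.121, limma adjusted p = 0.153). The 6 hr and 48 hr neighbours overlapped in the order of means, and the 6-day groups did not, for a span of 1.93 times.

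OGDH is the first enzyme of the 2-oxoglutarate dehydrogenase complex, which makes succinyl-CoA and NADH. Its level was 11.3 and 9.76 RPKM in normoxia and 13.1 and 11.8 in hypoxia at 6 hr, 11.7 and 11.3 against 11.5 and 11.5 at 48 hr, and 8.66 and 10.3 against 7.33 and 6.11 at 6 days. Hypoxia was the higher group at 6 hr, lay within normoxia at 48 hr and was the lower group at 6 days. OGDH fell by 0.47 at 6 days (SE 0.116, limma adjusted p = 0.00776), to 6.72 ± 0.862 RPKM from 9.49 ± 1.17 (SD, n = 2). The call was lost without library 10 or 12 (limma adjusted p = 0.0801 and 0.0773). The difference at 6 hr was 0.23 (limma adjusted p = 0.347). Hypoxia at 6 hr was the highest of its 6 groups and hypoxia at 6 days the lowest, 1.85 times apart, and both lay clear of their neighbours.

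SUCLG2 is the GTP-forming beta subunit of succinyl-CoA ligase. It was at 10.85 and 9.32 RPKM in normoxia and 13.1 and 12.5 in hypoxia at 6 hr, at 11.6 and 13.3 against 13.8 and 13.6 at 48 hr, and at 20.6 and 17.6 against 17.5 and 13.8 at 6 days. Hypoxia was the higher group at 6 hr and 48 hr and the lower one at 6 days, by a narrow gap. None of these passed: the log2 differences were 0.33 (limma adjusted p = 0.209), 0.14 (limma adjusted p = 0.533) and -0.28 (SE 0.127, limma adjusted p = 0.0944). Normoxia at 6 days was the highest group and normoxia at 6 hr the lowest, 1.89 times apart, and both lay clear of their neighbours. Between them normoxia at 48 hr overlapped hypoxia at 6 hr, and hypoxia at 48 hr overlapped hypoxia at 6 days.

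FH is fumarase, which hydrates fumarate to malate and is a tumour suppressor in hereditary kidney cancer. It was at 20.4 and 16.0 RPKM in normoxia and 19.7 and 15.6 in hypoxia at 6 hr, at 21.2 and 21.5 against 18.9 and 18.4 at 48 hr, and at 21.7 and 22.2 against 14.2 and 13.2 at 6 days. The 6 hr groups overlapped, and hypoxia lay lower at both later times. At 6 days FH fell by 0.66 on the log2 scale (SE 0.127, limma adjusted p = 0.00187), the largest oxygen difference among the 9 genes. Its mean there was 13.7 ± 0.729 RPKM against 21.9 ± 0.373 (SD, n = 2). At 48 hr the difference was -0.19 (limma adjusted p = 0.374). Hypoxia at 6 days was the lowest of its 6 groups and lay clear of the next, while the 3 that followed overlapped.

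MDH1 and MDH2 interconvert malate and oxaloacetate, MDH1 in the cytosol and MDH2 in mitochondria, and together they carry the malate-aspartate shuttle of reducing equivalents. They were the most abundant of the 9, with means over the 12 libraries of 69.1 and 83.5 RPKM. MDH2 was at 81.8 and 87.4 RPKM in normoxia and 88.9 and 78.5 in hypoxia at 6 hr, at 96.6 and 95.4 against 88.9 and 88.3 at 48 hr, and at 84.8 and 85.4 against 61.0 and 65.6 at 6 days. Hypoxia at 6 days was below every other library, and the 6 hr groups and normoxia at 6 days overlapped next in order. MDH2 fell there by 0.42 (SE 0.0970, limma adjusted p = 0.00506), to 63.3 ± 3.20 RPKM from 85.1 ± 0.425 (SD, n = 2).

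MDH1 was not called for oxygen at any time. It was at 55.5 and 47.7 RPKM in normoxia and 68.2 and 66.9 in hypoxia at 6 hr, at 73.0 and 65.7 against 79.7 and 74.8 at 48 hr, and at 72.7 and 71.5 against 83.8 and 70.3 at 6 days. Hypoxia was higher without overlap at 6 hr and 48 hr, and the 6-day groups overlapped. No oxygen difference passed: 0.39 at 6 hr (SE 0.115, limma adjusted p = 0.101), 0.16 at 48 hr (limma adjusted p = 0.422) and 0.09 at 6 days (95% interval -0.16 to 0.34, limma adjusted p = 0.557). Without library 1 the difference at 6 hr was 0.50 (limma adjusted p = 0.0390). Normoxia at 6 hr was the lowest group, and the other 5 each overlapped the next in order.

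Groups without overlap between oxygen levels were common over the whole table: 4 of the 9 genes and 37.0% of all genes at 6 hr, 8 of 9 and 62.9% at 48 hr, and 8 of 9 and 75.3% at 6 days. At 6 hr 3 of the 9 genes had an unadjusted p under 0.05 (IDH2, SUCLG2 and MDH1), and at 48 hr 1 did (IDH2), against 16.8% and 26.8% of all genes. Rescaling changed how many of the 9 passed. At 6 days 8 passed (1 higher and 7 lower) with quantile normalization and with trimmed-mean centring, the additions being IDH1, IDH3A and SUCLG2, all lower. These scalings called 50.1% and 45.4% of all genes at 6 days. Across the times 4 and 5 passed with these scalings, with IDH2 higher and the others lower (IDH1, FH and MDH2, joined by CS after centring), and 26.4% and 27.5% of all genes were called. Over all genes called, the share that was higher moved with these scalings from 94.4% to 76.1% and 76.0% at 6 hr, from 76.2% to 57.9% and 55.8% at 48 hr, from 56.6% to 45.3% and 47.9% at 6 days, and from 68.3% to 43.7% and 46.4% across the times. CS, FH and MDH2 at 6 days passed under all 20 alternatives run for them.

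**Figure D2:**
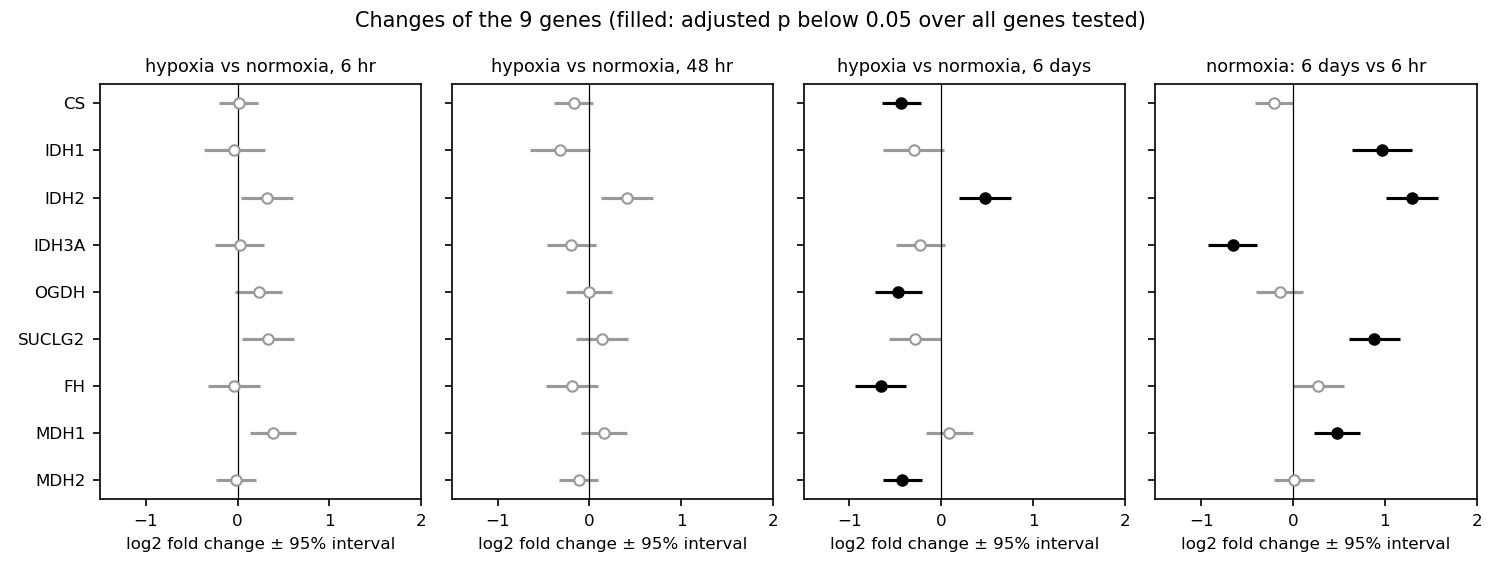
Log2 fold change of each of the 9 genes (x axis) with its 95% interval, by comparison. Filled points have an adjusted p below 0.05 over all genes tested. At 6 days hypoxia lowers FH, CS, MDH2 and OGDH and raises IDH2, and 6 days in normoxia raises IDH2, IDH1, SUCLG2 and MDH1 and lowers IDH3A.

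Whether the oxygen effect itself differed between times was tested in the same fit. No gene of the 9 passed for 48 hr minus 6 hr (0.528% of all genes did), and none had an unadjusted p under 0.05. For 6 days minus 48 hr none passed with limma (10.7% of all genes did), and 4 had an unadjusted p under 0.05: OGDH, SUCLG2, FH and MDH2. The nearest was OGDH at -0.46 (SE 0.163, limma adjusted p = 0.0920), followed by FH at -0.47 (SE 0.180, limma adjusted p = 0.114). The difference between the last and the first time was added after seeing the data. It called OGDH (-0.70, SE 0.163, limma adjusted p = 0.0131), FH (-0.62, SE 0.180, limma adjusted p = 0.0316), SUCLG2 (-0.62, SE 0.180, limma adjusted p = 0.0324) and CS (-0.45, SE 0.136, limma adjusted p = 0.0385), all lower. Of all genes 21.4% were called, 11.2% higher and 10.2% lower. The calls of OGDH, FH, SUCLG2 and CS were each lost without library 3 or without library 12, where fewer of all genes passed too. In a fit of only the groups compared OGDH alone of the 9 passed, with 15.0% of all genes called. IDH2 was at 0.15 (95% interval -0.25 to 0.56), and did not pass. This value turned on the 6 hr normoxia libraries, at 0.39 without library 2 (limma adjusted p = 0.0409) and -0.08 without library 1 (limma adjusted p = 0.656).

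Time in culture without low oxygen also moved the genes. In normoxia 5 of the 9 changed from 6 hr to 6 days, where 56.7% of all genes did (30.9% higher and 25.9% lower). IDH2 rose by 1.30 on the log2 scale (SE 0.129, limma adjusted p = 1.17e-05), IDH1 by 0.97 (SE 0.150, limma adjusted p = 0.000242), SUCLG2 by 0.89 (SE 0.127, limma adjusted p = 0.000148) and MDH1 by 0.48 (SE 0.115, limma adjusted p = 0.00395). IDH3A fell by 0.66 (SE 0.121, limma adjusted p = 0.000835). All 5 calls held under all 20 alternatives. FH (0.28), CS (-0.21), OGDH (-0.15) and MDH2 (0.01) did not pass. From 6 hr to 48 hr in normoxia no gene of the 9 passed with limma, as against 0.0922% of all genes. All 9 differences were above 0, and IDH2, SUCLG2 and MDH1 had an unadjusted p under 0.05, as did 16.4% of all genes. The median log2 difference was above 0 over the whole table too, at 0.08 against 0.23 for the 9 genes. Without library 1, IDH1, IDH2 and MDH1 passed, and the genes called over the whole table went from 11 to 1310 of 11933.

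The same course in hypoxia, from 6 hr to 6 days, was added after seeing the data and called 7 of the 9, with 64.9% of all genes called (35.1% higher and 29.8% lower). IDH2 rose by 1.45 (SE 0.129, limma adjusted p = 3.41e-06) and IDH1 by 0.70 (SE 0.150, limma adjusted p = 0.00165). IDH3A fell by 0.90, OGDH by 0.85, CS by 0.66, MDH2 by 0.40 and FH by 0.35. The call of FH (limma adjusted p = 0.0322) was lost without library 3, 11 or 12, at limma adjusted p = 0.278, 0.0580 and 0.147, and with quantile normalization (limma adjusted p = 0.0542). SUCLG2 (0.27) and MDH1 (0.18) did not pass. The oxygen comparison at 6 days and this course share libraries 11 and 12, so they are given side by side and not combined.

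Over the 6 group means, as a description, CS ran closest to MDH2 (Pearson r 0.956), OGDH (0.946) and IDH3A (0.919). IDH2 ran against IDH3A (r -0.945), and IDH1 also did (-0.844). The groups share their time points, and these values carry no test. Among all genes tested, those most like IDH2 over the 6 group means were SLC30A9 (r 0.998), LATS2 (0.996) and HIST1H2BF (0.996). Their spans were smaller, 0.40, 0.50 and 0.96 on the log2 scale against 1.77 for IDH2, and reads of HIST1H2BF may be shared with near-identical histone genes.

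Because isozymes and partners are measured in the same library, their ratio does not depend on how the library was scaled. The 9 ratios were tested with an exact permutation test, two-sided, with oxygen labels permuted within each time. The test has 216 assignments, its smallest p is 0.00926, and p was adjusted over the 9 ratios. For 6 of the 9 the libraries of hypoxia and normoxia lay apart at all 3 times, and these reached that smallest p (exact permutation adjusted p = 0.0139). Libraries that lie apart in the same direction at every time give that p whatever the size of the difference. The share of other gene pairs that lay apart was not counted. Of all single genes tested, 37.0%, 62.9% and 75.3% lay apart at 6 hr, 48 hr and 6 days, so such separation is common in these data.

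The balance of isocitrate dehydrogenases moved toward IDH2. IDH1/IDH2 was 3.43 ± 0.163 in normoxia and 2.64 ± 0.0429 in hypoxia at 6 hr, 2.85 ± 0.154 and 1.69 ± 0.0349 at 48 hr, and 2.64 ± 0.0622 and 1.53 ± 0.118 at 6 days (SD, n = 2). The mean log2 difference was -0.64 (SE 0.0377, exact permutation p = 0.00926). IDH3A/IDH2 has the same denominator, IDH2, so its fall is not a separate result. The IDH3A/IDH2 ratio fell by 0.56 (SE 0.0301, exact permutation p = 0.00926). It was 2.68 ± 0.104 and 2.14 ± 0.125 at 6 hr, 1.94 ± 0.0938 and 1.25 ± 0.0103 at 48 hr, and 0.652 ± 0.0109 and 0.395 ± 0.00630 at 6 days, normoxia first (SD, n = 2). This ratio also fell with time in normoxia. In the 6-day libraries IDH2 was therefore above IDH3A, and in all 8 earlier ones below it. Within the NAD-dependent enzyme, IDH3A against its partner subunit IDH3B fell by 0.18 (SE 0.0720, exact permutation p = 0.00926). Without library 1 or library 2 the difference was -0.17 or -0.19, and hypoxia stayed lower without overlap at 6 hr. The call was lost in both fits. Their 6 hr groups were uneven in size, so their test cannot be set beside that of all 12 libraries.

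The cytosolic malate dehydrogenase gained on the mitochondrial one. MDH1/MDH2 was 0.612 ± 0.0935 and 0.809 ± 0.0598 at 6 hr, 0.722 ± 0.0468 and 0.872 ± 0.0352 at 48 hr, and 0.847 ± 0.0140 and 1.22 ± 0.213 at 6 days, normoxia first (SD, n = 2). The mean log2 difference was 0.40 (SE 0.0871, exact permutation p = 0.00926). Hypoxia at 6 days was the one group whose mean ratio lay above 1.

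In succinyl-CoA ligase, the ratio of SUCLG2 to the shared alpha subunit SUCLG1 rose by 0.39 (SE 0.0717, exact permutation p = 0.00926). Its means were 0.631 and 0.775 at 6 hr, 0.708 and 0.972 at 48 hr and 1.06 and 1.39 at 6 days, normoxia first. At 6 days SUCLG2 itself was not higher in hypoxia (-0.28), and SUCLG1 was lower by more. Against SUCLA2, the ATP-forming beta subunit, the difference was 0.30 (SE 0.0776, exact permutation p = 0.0556, adjusted p = 0.0625). That ratio was apart at 6 hr and 48 hr, and nearly equal at 6 days (2.41 ± 0.289 and 2.40 ± 0.297). It passed without library 9 or 12 (adjusted p = 0.0357).

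The ratio of FH to SDHA, the flavoprotein of succinate dehydrogenase one step before FH, fell by 0.31 (SE 0.0581, exact permutation p = 0.00926). At 6 hr the log2 difference of FH itself was -0.04. The ratio was 1.13 ± 0.118 and 0.871 ± 0.0230 at 6 hr, 0.910 ± 0.0798 and 0.723 ± 0.00473 at 48 hr, and 1.19 ± 0.0586 and 1.02 ± 0.0876 at 6 days (SD, n = 2). OGDH/DLST, the first over the second enzyme of the complex, was at 0.05 over the times (SE 0.0985, exact permutation p = 0.620), a mean of opposite directions. Its log2 difference was 0.41 at 6 hr, where the libraries did not overlap, and -0.07 at 48 hr and -0.20 at 6 days, where they did. Leaving out 1 library moved the mean from -0.03 (without library 11) to 0.12 (without library 12).

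**Figure D3:**
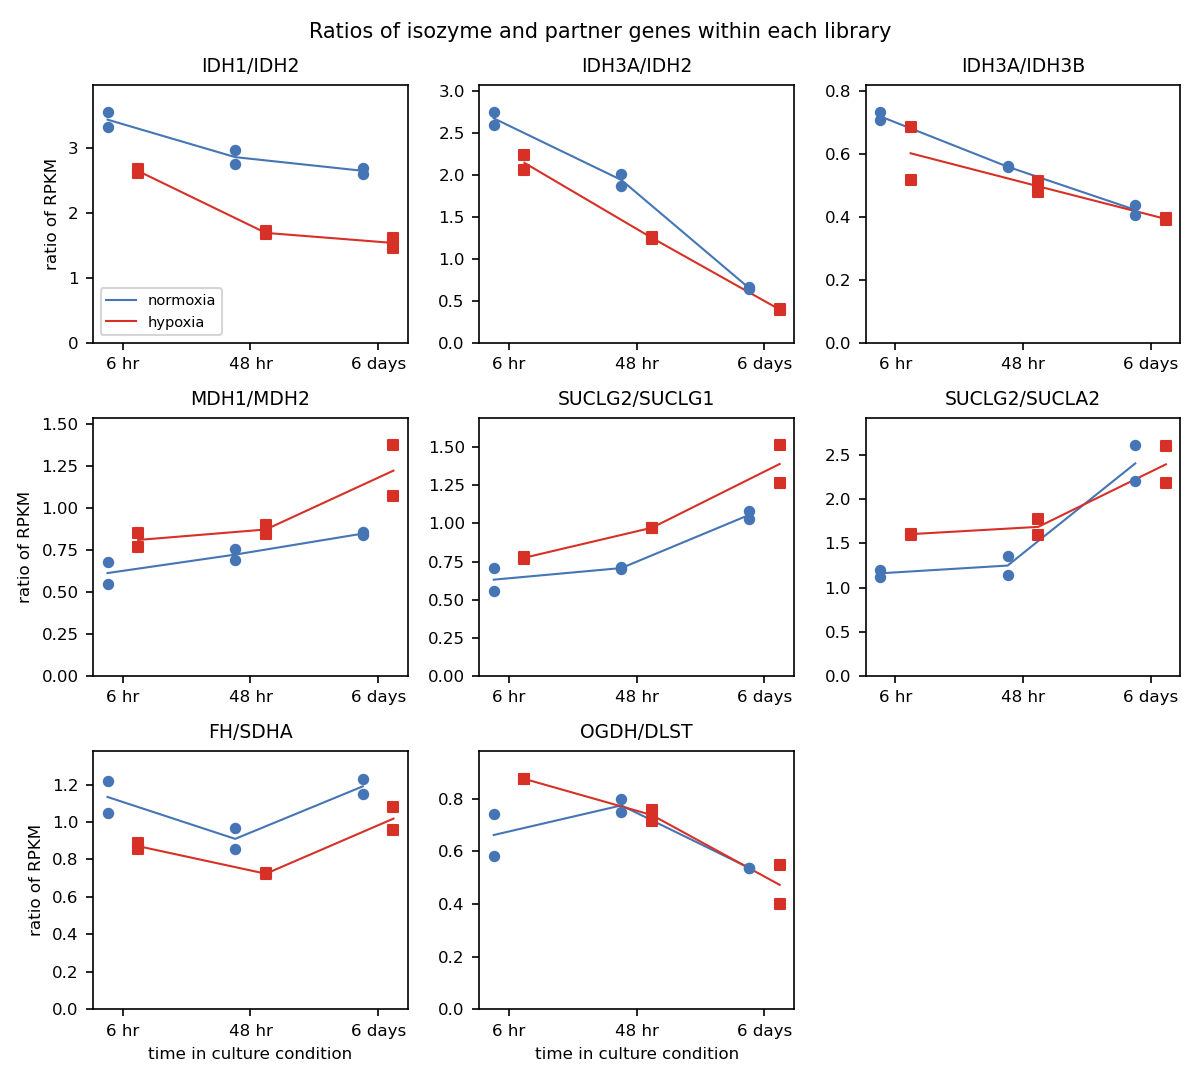
Ratio of RPKM within each library (y axis, from 0) by time (x axis) for 8 pairs, with normoxia and hypoxia in separate colours. Points are libraries and lines join group means. In IDH1/IDH2 and IDH3A/IDH2 the hypoxic points lie below the normoxic ones at all 3 times, and in MDH1/MDH2 and SUCLG2/SUCLG1 above them.

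The rest of the pathway was taken from lists chosen by function. Of the 11 other TCA cycle enzymes no gene passed for hypoxia against normoxia at 6 hr or 48 hr, and 3 were lower at 6 days, against 18.3% of all genes. The median log2 fold change of the 11 at 6 days was -0.20. The 3 were SDHB, the iron-sulphur subunit of succinate dehydrogenase, at 30.1 ± 2.01 RPKM against 53.3 ± 1.44 (-0.82, limma adjusted p = 0.000493), SUCLG1 at 11.2 ± 0.482 against 18.0 ± 1.39 (-0.66, limma adjusted p = 0.000407) and SDHA at 13.5 ± 0.445 against 18.5 ± 0.595 (-0.44, limma adjusted p = 0.00669). The 3 calls held under all 20 alternatives. With SDHA, SDHB and FH lower, the consecutive steps from succinate to malate each had a lower transcript, whereas SDHC (0.11, limma adjusted p = 0.316) and SDHD (0.23, limma adjusted p = 0.0903) did not pass. Across the times SUCLA2 (-0.22, limma adjusted p = 0.0305) and SUCLG1 (-0.31, limma adjusted p = 0.0424) were lower, and each call was lost without 1 library in 8 of 12 cases. DLST (-0.13) and SDHB (-0.33) did not pass across the times.

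**Figure D4:**
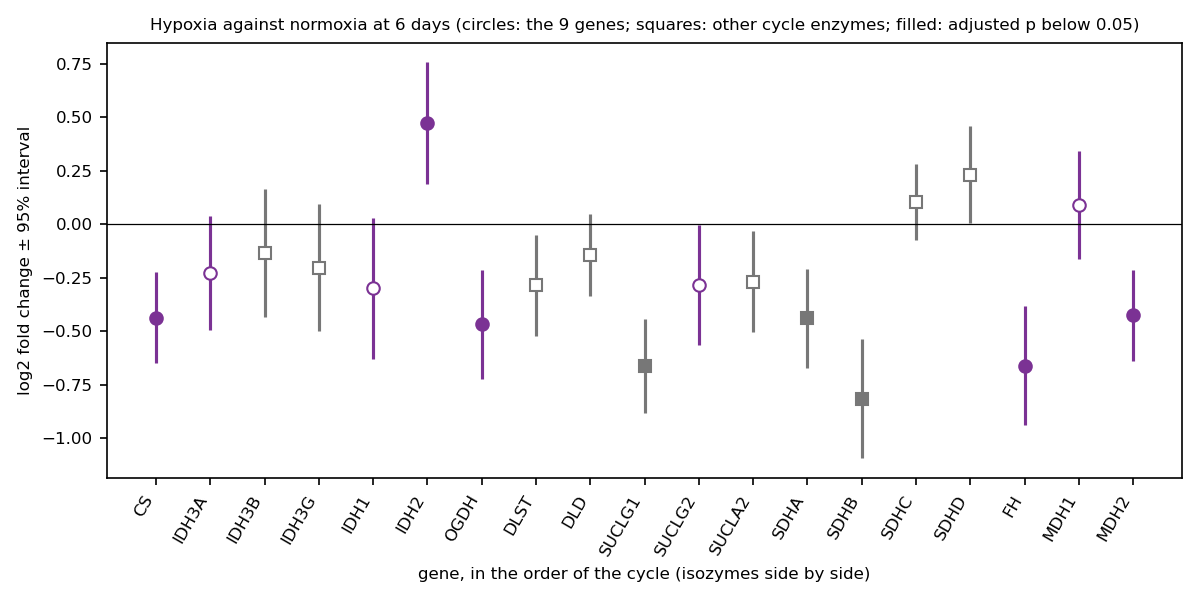
Log2 fold change with its 95% interval for hypoxia against normoxia at 6 days, for the 9 genes (circles) and other cycle enzymes (squares). Filled symbols have an adjusted p below 0.05. FH, CS, MDH2, OGDH, SDHA, SDHB and SUCLG1 are lower and IDH2 is higher.

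Of 18 enzymes and carriers that feed or drain the cycle 16 were tested. At 6 hr none passed with limma, at 48 hr 2 were higher and 1 lower, and at 6 days 1 was higher and 7 lower. Over all genes 9.24% were higher and 2.89% lower at 48 hr, and 23.9% and 18.3% at 6 days. SLC25A1, the carrier that exports citrate, was higher at 6 days (0.50, limma adjusted p = 0.0178) and across the times (0.37, limma adjusted p = 0.0111). SLC25A12, an aspartate-glutamate carrier of the malate-aspartate shuttle, was lower at 6 days (-0.81, limma adjusted p = 0.000806) and across the times (-0.49, limma adjusted p = 0.0108), and the cytosolic malic enzyme ME1 likewise (-0.49 and -0.30, limma adjusted p = 0.00303 and 0.0143). ACO1 (0.19, limma adjusted p = 0.0815) did not pass across the times. GOT2, the mitochondrial aspartate transaminase, was lower at 6 days (-0.63, limma adjusted p = 0.00103). Named after their values were seen, ACLY, GLUD1, DHTKD1 and PCK2 made up the rest of the 7. PCK2, the mitochondrial phosphoenolpyruvate carboxykinase, turned with time: it was higher in hypoxia at 48 hr (0.76, limma adjusted p = 0.00175) and lower at 6 days (-0.44, limma adjusted p = 0.0128). It also rose 7.79 times from 7.16 ± 0.493 to 59.2 ± 3.38 RPKM over 6 days in normoxia (limma adjusted p = 3.45e-08). The calls at 6 days of PCK2 (without library 10 or 12), SLC25A1 (without 9 or 11), GLUD1 (without 9, 10, 11 or 12) and DHTKD1 (without 9, 10 or 12) were lost, and those of ACLY, GOT2, ME1 and SLC25A12 held under all 20 alternatives. At 48 hr OGDHL was the other gene that was higher (0.46, limma adjusted p = 0.0119, lost without 5, 6 or 7) and SLC25A12 the one that was lower (-0.60, limma adjusted p = 0.0154, lost without 5, 6, 7 or 8).

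D2HGDH clears 2-hydroxyglutarate, a side product of isocitrate dehydrogenases. It was at 2.59 ± 0.140 RPKM against 3.67 ± 0.611 at 6 days (-0.43, limma adjusted p = 0.0487, lost under 10 of 19).

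All 7 genes for assembly of succinate dehydrogenase and for lipoate, the cofactor of the OGDH complex, were tested, SDHAF3 and SDHAF4 under their older names ACN9 and C6orf57. None passed at 6 hr or 48 hr with limma. At 6 days 4 were higher (SDHAF1 0.51, SDHAF2 0.40, ACN9 0.40 and LIPT2 0.80) and C6orf57 was lower (-0.43), against 23.9% and 18.3% of all genes. Each of the 5 calls was lost on leaving out 1 of at least 2 of the 6-day libraries. Across the times LIPT2 (0.53, limma adjusted p = 0.0180) and SDHAF2 (0.25, limma adjusted p = 0.0280) were higher and LIAS, lipoate synthase (-0.30, limma adjusted p = 0.0189), and C6orf57 (-0.27, limma adjusted p = 0.0301) were lower. Of these calls C6orf57 was lost under 8 of 19 alternatives (without library 4, 5, 7, 9, 10, 11 or 12, and with no filter), SDHAF2 under 6 of 19 (without library 3, 6, 9, 10, 11 or 12), LIAS without library 7 or 11, and LIPT2 with quantile normalization. LIPT2 was near the minimum for testing, at 1.58 ± 0.0706 RPKM against 0.726 ± 0.385 at 6 days.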

How the data were processed

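RNA of 12 libraries was read on a SOLiD 5500xl after ribosomal depletion, per the labels' protocols. The authors deposited RPKM per gene symbol and per precursor miRNA. Partek 6.6 and build hg19 are listed in the submitters' processing notes, and for the aligner, transcript models, strand setting and RPKM denominator the entry is "not given in the sources used here", so reads of overlapping antisense genes cannot be told apart.

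Genes with at least 1 RPKM in at least 2 libraries (11933) were tested on log2(RPKM + 0.5) in R 4.3.3 (limma 3.58.1), fitting 6 group means, empirical Bayes with an intensity trend (residual degrees of freedom 6, prior 5.08), two-sided, Benjamini-Hochberg over all genes. The effect across the times came from an additive fit of time and oxygen. Ratios used RPKM as deposited. The scripts were tested on simulated data. Depth came from precursor values, 95.4 to 99.3% of which lay within 0.05 reads of whole numbers. For 710 of 939 precursors a length was at hand. Alternatives were other pseudocounts (0.1 and 1), filters (none, or 5 RPKM), quantile normalization, trimmed-mean centring (10% from each end), no trend, the compared groups alone, and each library left out. Named were all 9 genes and up to 4 genes of each list with the smallest adjusted p across the times, and other genes were named after their values were seen. The members and lists were chosen with earlier results of these data known. A ratio and a listed gene are not reported here. Figures were drawn with matplotlib 3.10.9.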

Additional observations from a re-analysis of the deposited data

Results flagged for a closer look

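The effect of low oxygen differed between times, by a test of the difference itself in limma over all genes, for the following genes. For 6 days minus 6 hr, a comparison added after seeing the data, the differences on the log2 scale among the 9 genes were -0.45 for CS (limma adjusted p = 0.0385), -0.70 for OGDH (0.0131), -0.62 for SUCLG2 (0.0324) and -0.62 for FH (0.0316). CS lost its call without library 1, 3, 7, 8, 9, 10, 11 or 12, OGDH without 3, 10 or 12, SUCLG2 without 2, 3, 4, 7, 8, 9 or 12, and FH without 2, 3, 9, 10, 11 or 12.

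Among the other cycle enzymes the same difference was -0.77 for SDHA, -0.92 for SDHB, -0.70 for SUCLG1, -0.65 for IDH3G and 0.52 for SDHD. Among the genes that feed or drain the cycle it was -0.70 for ACLY, -0.39 for GLUD1, -0.76 for GOT2 and -0.75 for SLC25A12. The calls of SDHA, SDHB, SUCLG1, ACLY and GOT2 held under all 20 alternatives. IDH3G lost its call without library 2, 3, 7, 8, 10 or 12, SDHD without 3, 4, 10, 11 or 12, GLUD1 without 3, 4, 7, 8, 9, 10, 11 or 12, and SLC25A12 without 3, 10 or 12.

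For 6 days minus 48 hr the differences were -1.21 for PCK2, -0.87 for D2HGDH, -0.62 for ACLY, -0.62 for OGDHL, -0.57 for SDHA and 0.51 for SDHD. PCK2 held its call under all 20 alternatives. The calls of ACLY, SDHA, SDHD, D2HGDH and OGDHL were each lost without 1 library in at least 6 of 12 cases.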

How the results depend on the processing

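Of the values of single genes and ratios under the alternatives, 3307 kept their side of the threshold, 250 lost a call, 66 gained one, and none that was called changed sign. With quantile normalization the number of the 9 genes called was 1 for hypoxia at 48 hr, 8 at 6 days, 2 for 6 days minus 48 hr and 4 across the times. Of all genes, 13.6%, 50.1%, 20.8% and 26.4% were called there. With trimmed-mean centring the number of the 9 was 1, 8, 2 and 5 for the same comparisons, against 16.4%, 45.4%, 14.9% and 27.5% of all genes. In fits of only the groups compared it was 2 at 48 hr, 1 for 6 days minus 48 hr and 1 for 6 days minus 6 hr. Of all genes, 16.57%, 19.98% and 15.02% were called in these fits. The cause was not tested. On leaving out 1 library at a time the number ran from 0 to 2 at 6 hr (2 without library 1), from 0 to 2 at 48 hr (2 without library 1 or 2), from 3 to 7 at 6 days (3 without library 10), from 0 to 1 for 6 days minus 48 hr (1 without library 1 or 2) and from 0 to 3 for normoxia at 48 hr against 6 hr (3 without library 1). It ran from 0 to 5 for 6 days minus 6 hr (0 without library 3 or 12) and from 1 to 4 across the times (4 without library 2, 3 without library 3, 2 without library 12). The share of all genes called also changed in most of these fits, so a changed count is not particular to the 9 genes. The group left with 1 library was assumed to vary like the others. The number of ratios past the threshold ran from 5 to 7. No paired analysis was possible because the labels number the libraries 1 to 12 and no groups share a number. With 2 libraries a group, small differences were not detectable, and the low genes rest on the fewest reads.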
